A study of Drosophila melanogaster with 6 samples.

Results

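The mitochondrial ribosomal protein genes of *Drosophila melanogaster* were followed in flies overexpressing lncRNA-CR33942 and in control flies. Members were the genes whose symbol starts with mRpL (large subunit) or mRpS (small subunit). There were 72 of them among the 15656 genes of the table, namely 46 mRpL and 26 mRpS genes. RNA was taken 12 h after *E. coli* infection from adult males aged 3 to 5 d, and the study asked what overexpression of this long non-coding RNA does to gene expression during an Imd immune response. Both groups carried Gal80ts, a temperature-sensitive repressor of Gal4, and the Tub-Gal4 driver, whose tubulin promoter is active throughout the body. The overexpression group (Gal80ts; Tub>lncRNA-CR33942) also carried the UAS transgene, and the control group (Gal80ts; Tub-Gal4/P{CaryP}attP40) carried a landing site without it. All flies were kept at 18°C and then at 29°C, where Gal80ts stops working, for at least 24 h. There were 3 libraries per group, and no uninfected flies were analysed here. The labels do not say whether the libraries came from separate crosses or how many flies each held, so p-values measure the spread between these libraries only.

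Mitochondria make a small set of respiratory chain subunits on their own ribosomes. The rRNAs of these ribosomes are encoded in mitochondrial DNA, while every ribosomal protein is encoded in the nucleus, made in the cytosol and imported. Some of these proteins descend from those of bacterial ribosomes, and others were added during the evolution of mitochondria. The large subunit joins the amino acids, and the small subunit holds the mRNA and reads it. In flies, mutations of such genes are known for slow growth and for the bang sensitivity of *tko* mutants, and muscle and the germ line are tissues with a high demand for mitochondria.

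The libraries held between 16894595 and 19423287 reads assigned to genes. The deposited values are normalized read counts, that is, reads divided by 1 size factor for each library (0.931 to 1.06). lncRNA-CR33942, listed as pncr016:2R, had 4636 ± 244 normalized counts in overexpressing and 197 ± 17.1 in control flies (SD, n = 3 each), and the groups did not overlap. The male roX1 and roX2 RNAs were present in every library, and of the female yolk protein genes Yp1 and Yp2 were at or near 0. The third, Yp3, had 822 to 856 normalized counts in control and 220 to 515 in overexpression libraries. limma called it lower (log2 fold change -1.19, adjusted p = 0.00532). Because whole flies were sampled, fewer cells of a type and less RNA per cell cannot be told apart. Some tissue markers differed between the groups. Of 9 muscle markers 5 were lower and none higher by limma (Mhc by a log2 fold change of -0.40). The list was named for flight muscle, but genes such as Mhc and Tm2 are also expressed in other muscles. The 9 together summed to 155949 to 165911 in control and 127430 to 145075 in overexpression libraries. Of those that limma did not call, Act88F (0.03) and fln (-0.04) had overlapping groups. In wupA (-0.14) and Mlc2 (-0.23) all overexpression libraries were lower. Mlc2 was called lower by edgeR, DESeq2 and limma voom (adjusted p = 0.0292, 0.00194 and 0.0182). All 4 eye markers were higher (sums of 75227 to 76958 and of 90707 to 99902). Of 3 hemocyte markers, limma called Hml higher (0.21) and NimC1 (-0.56) and Pxn (-0.33, groups overlapping) lower. Of the fat body markers, Lsp2 (-1.59) was called lower, and so was Fbp1 (-1.69), although its groups overlapped (605 to 1703 normalized counts in control, 177 to 662 in overexpression libraries) and DESeq2 did not call it (adjusted p = 0.203). limma called none of 7 testis, 3 neuron and 3 gut markers, while DESeq2 called the gut markers alphaTry (adjusted p = 0.0137) and Mal-A1 (0.0432) and limma voom called alphaTry (0.0396). The part of these tissue differences in the results below was not tested.

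All 72 genes had reads in every library, and their levels lay close together. In FPKM, which corrects for gene length, the mean over the 6 libraries had a median of 19.9, and 61 of 72 genes lay between 10 and 30. The gene at the 90th percentile was 2.21 times that at the 10th, against 40.9 times over the 11834 protein-coding genes tested, whose median was 11.9. Large subunit genes (median 19.7) and small subunit genes (median 20.9) were alike in FPKM. Cytosolic ribosomal protein genes had a median of 701 FPKM, and nuclear genes of complex I, the NADH dehydrogenase whose mitochondrial subunits these ribosomes translate, one of 187 FPKM.

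The highest level was that of mRpL28, a large subunit protein with a bacterial counterpart. It had 66.6, 63.6 and 62.8 FPKM in control replicates 1, 2 and 3 and 65.4, 63.3 and 61.3 FPKM in overexpression replicates 1, 2 and 3. The ranges of the groups overlapped, and every one of these values was above that of any other member. Next came mRpL42, a protein without a bacterial counterpart, at a mean of 45.0 FPKM, mRpS7, which binds the small subunit rRNA, at 42.1, mRpL12, the flexible stalk protein that contacts elongation factors, at 39.8, and mRpL24, at the polypeptide exit tunnel, at 35.9 FPKM. None of these 5 genes was called, and their log2 fold changes ran from -0.06 (mRpL28) to 0.07 (mRpS7).

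The lowest level was that of mRpL21, a bacterial-type large subunit protein, with 7.08, 7.54 and 7.32 FPKM in control and 8.33, 8.40 and 8.57 FPKM in overexpression libraries. The overexpression libraries were all higher than the control libraries, with a log2 fold change of 0.16 (standard error 0.091) that did not pass the test (limma adjusted p = 0.322). mRpS24, whose bacterial counterpart lines the mRNA entry, had 11.5, 8.09 and 8.32 FPKM in control and 8.40, 12.0 and 9.40 FPKM in overexpression libraries. Here 1 library of each group was high and the groups overlapped. mRpL11 at the base of the stalk (mean 9.85 FPKM), mRpL48 (11.1) and mRpL13 (12.5) completed the low end. In mRpL48, control replicate 3 stood apart at 7.82 FPKM while the other 5 libraries lay between 11.4 and 12.1 FPKM.

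**Figure D1:**
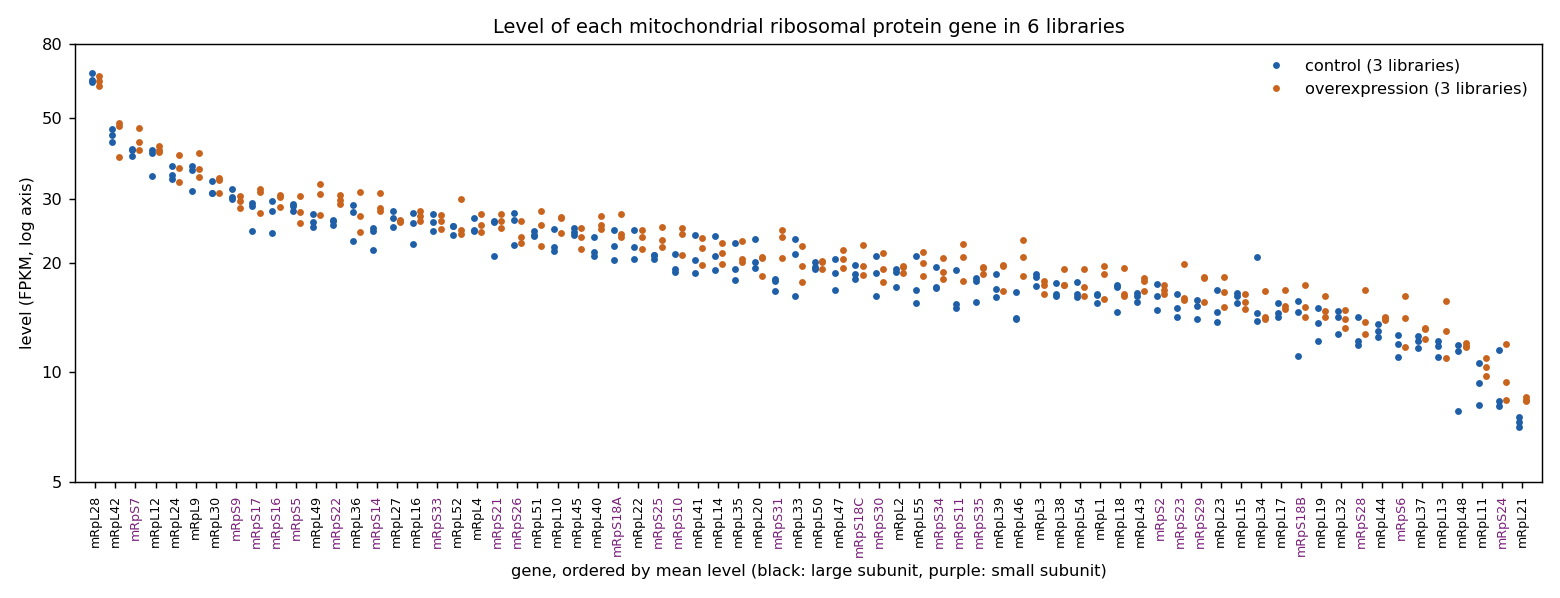
Level of each of the 72 genes in FPKM (y axis, logarithmic), ordered by the mean over the 6 libraries (x axis), with 1 point per library, blue for the 3 control and orange for the 3 overexpression libraries. Most genes lie between 10 and 30 FPKM, mRpL28 stands above the rest at 61.3 to 66.6 FPKM, and the colours overlap in most genes.

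Replicates were about as close as in other genes of like abundance. The coefficient of variation among the 3 libraries had a median of 7.14% in control and 6.90% in overexpressing flies over the members, against 6.42% and 6.84% over the 7714 tested genes within the members' range of counts. The 95% interval of a log2 fold change came from limma, which weighed a gene's own spread with that of other genes of like abundance (the intensity trend). The standard error of the log2 fold change had a median of 0.094 over the members.

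limma on log2(normalized count + 1), with Benjamini-Hochberg adjustment over all 13196 genes tested, called 2 of the 72 genes higher in overexpressing flies, mRpL46 and mRpS31, and none lower. That is 2.78% of the members upward, beside 3.18% of all genes tested upward and 5.24% downward, so the upward share was near the background. With reads scaled to the library total, 55.7% of all calls were upward rather than 37.8%, and the members' calls were again 2 and 0. edgeR, DESeq2 and limma voom on the recovered reads each called the same 2 genes higher and none lower, where they called 3.26%, 2.91% and 3.16% of all genes higher and 5.11%, 4.99% and 5.3% lower. At an unadjusted p under 0.05, mRpS14 and mRpS22 were added to the higher genes, making 4 of 72 (5.56%, background 9.78%), and there was again none lower (background 12.4%).

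mRpL46 is a large subunit protein without a bacterial counterpart, which in mammals sits in the central protuberance, the knob of the subunit that faces its partner. Its gene (FBgn0035272) lies on chromosome arm 3L at 1777439 to 1778347 of dm6, on the plus strand, and overlaps no other gene of the table. Normalized counts were 273, 232 and 235 in control replicates 1, 2 and 3 and 372, 335 and 296 in overexpression replicates 1, 2 and 3. The lowest overexpression library stood above the highest control library. The mean rose from 247 ± 22.9 to 334 ± 38 (SD, 3 libraries each), and the log2 fold change was 0.43 (standard error 0.107, 95% interval 0.20 to 0.67, limma adjusted p = 0.0263). The call was lost without control replicate 2 (adjusted p = 0.0668), control replicate 3 (0.0990), overexpression replicate 1 (0.109) or overexpression replicate 2 (0.0609) and without the intensity trend (0.128), over a range of 0.00914 to 0.128 in 16 alternatives. The nearest genes, CG2021 at 27 bases (log2 fold change 0.06) and alpha-Spec at 137 bases (-0.10), were not called.

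mRpS31 is a small subunit protein without a bacterial counterpart, located in the head of the subunit in mammals. Its gene (FBgn0036557) also lies on 3L, at 16005193 to 16006599 of dm6 on the plus strand. Normalized counts were 419, 388 and 419 in the control and 468, 555 and 532 in the overexpression libraries. All 3 overexpression libraries were above all 3 control libraries, with overexpression replicate 1 nearest to them. The mean rose from 408 ± 17.8 to 518 ± 45.4 (SD, 3 libraries each), and the log2 fold change was 0.34 (standard error 0.082, 95% interval 0.16 to 0.52, limma adjusted p = 0.0236). Of the 6 fits that left out 1 library, the call was kept only without overexpression replicate 1 (adjusted p = 0.0136). It was lost without control replicate 1 (0.0720), 2 (0.0665) or 3 (0.0619) and overexpression replicate 2 (0.0816) or 3 (0.0740), and without the intensity trend (0.120), so that over 16 alternatives it ran from 0.0136 to 0.120. The gene shares 48 bases with mib1, an E3 ubiquitin ligase gene on the other strand, whose log2 fold change was -0.22 (adjusted p = 0.0401). No source used here says whether counting used strand.

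**Figure D2:**
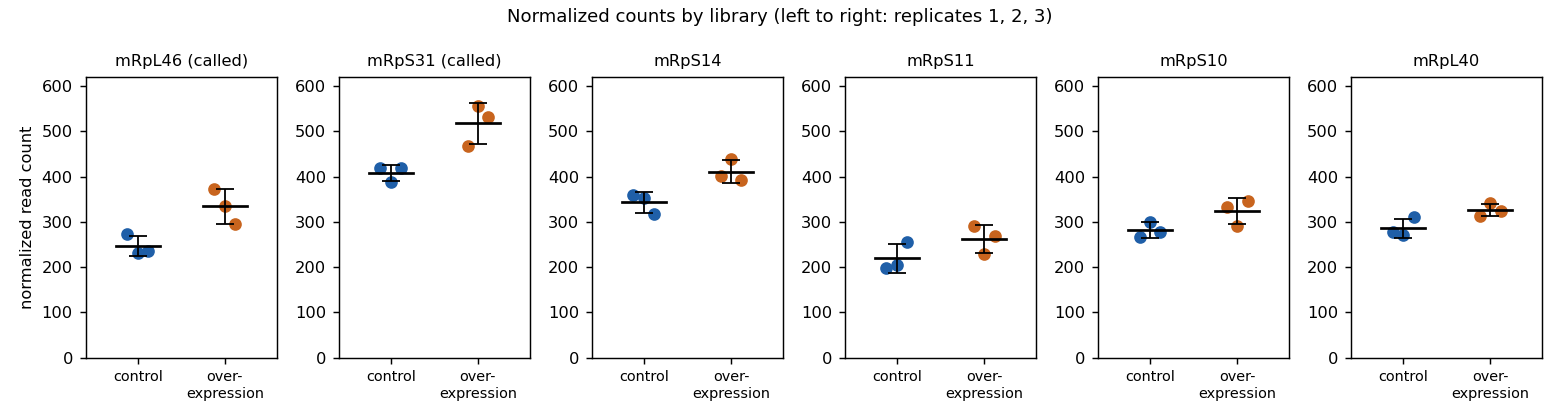
Normalized read count (y axis, from 0) of mRpL46, mRpS31, mRpS14, mRpS11, mRpS10 and mRpL40 in each library, replicates 1 to 3 from left to right, blue for control and orange for overexpression, with the mean and SD of 3 libraries as bars. The groups are apart in mRpL46, mRpS31, mRpS14 and mRpL40 and overlap in mRpS11 and mRpS10, and only the first 2 genes were called.

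Among the 70 genes that were not called, the largest differences were all toward higher values and lay mostly in the small subunit. mRpS11, a protein of the small subunit platform, had 198, 204 and 256 normalized counts in control and 291, 230 and 269 in overexpression libraries. Control replicate 3 lay above overexpression replicate 2, and the log2 fold change was 0.26 (standard error 0.125, limma adjusted p = 0.238). mRpS14, a protein of the small subunit head, had 360, 354 and 318 in control and 401, 439 and 393 normalized counts in overexpression libraries. Its groups did not overlap and its log2 fold change of 0.26 (standard error 0.085) came closest to the threshold of all 70 (adjusted p = 0.0842), with 0.0530 to 0.267 over 16 alternatives. This gene overlaps Nat1 by 255 bases on the other strand and CG32533 by 30 bases on its own strand. mRpS10, another head protein, followed with a log2 fold change of 0.20 (adjusted p = 0.254), mRpL40, a central protuberance protein in mammals, with 0.19 (0.233), and mRpS6, of the platform, with 0.19 (0.484). The value of mRpS6 rested on single libraries, at 0.08 without overexpression replicate 3 and 0.31 without overexpression replicate 2.

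The remaining genes moved little. Of the 72 genes, 43 (59.7%) had a log2 fold change within 0.1 of 0, beside 43.6% of all genes tested and 48.4% of those within the members' range of counts. For every one of the 70 genes not called, the 95% interval lay within a 1.5-fold change either way. The widest bounds were an upper one of 0.54 in mRpS11 and a lower one of -0.54 in mRpL34. mRpL34, chosen after its values were seen, also had the lowest log2 fold change (-0.15, standard error 0.178), and its counts of 86.3, 124 and 83.4 in control and 82.4, 81.4 and 97.2 in overexpression libraries overlapped, with control replicate 2 the highest. These intervals set the size of change that the 6 libraries could have missed.

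**Figure D3:**
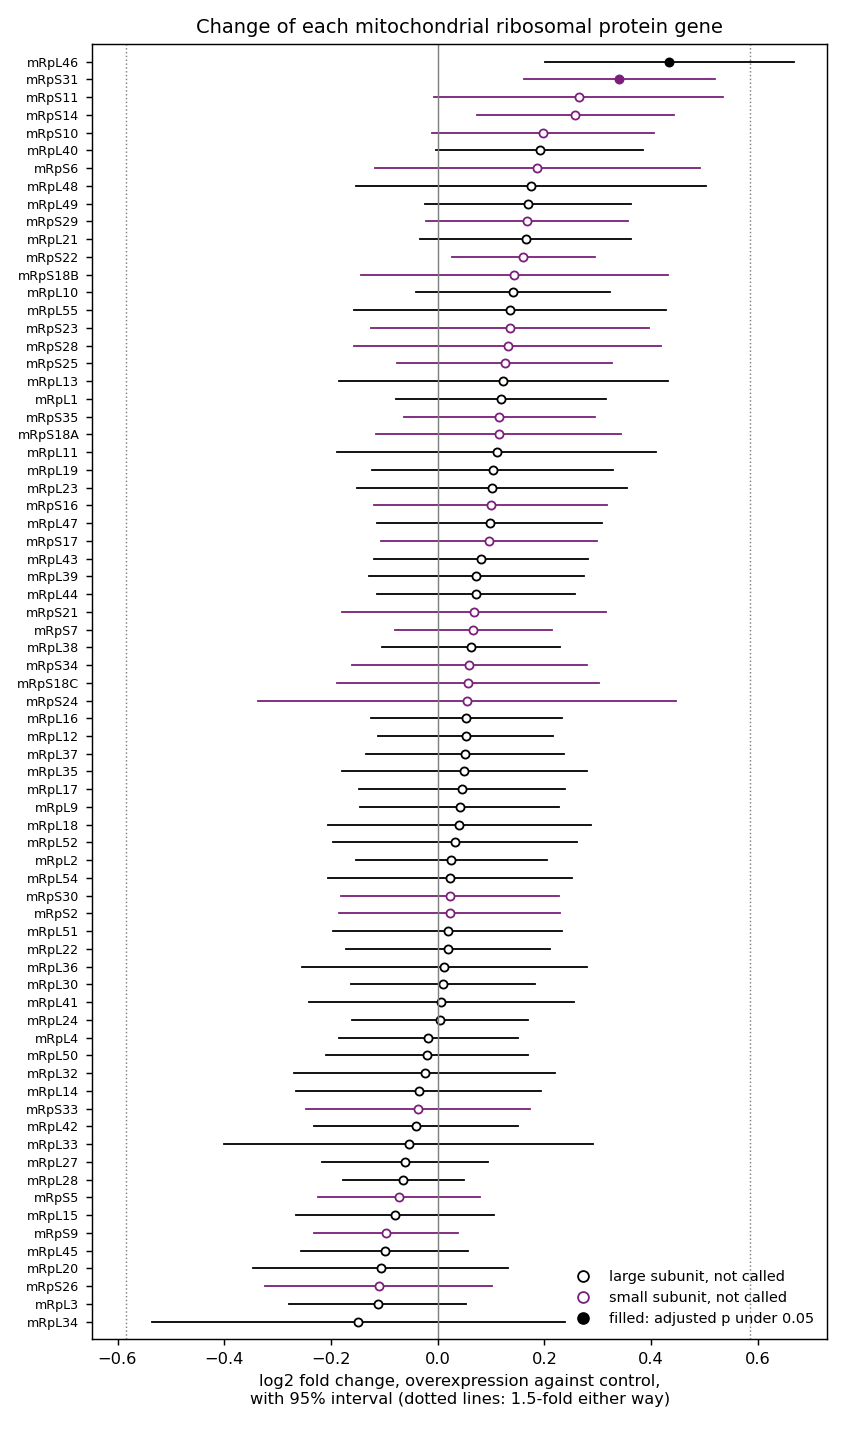
Log2 fold change of overexpression against control (x axis) with its 95% interval for each of the 72 genes (y axis, ordered by value), black for large and purple for small subunit genes, filled where the limma adjusted p was under 0.05. The filled points are mRpL46 (0.43) and mRpS31 (0.34), all open points have intervals inside the dotted lines at 1.5-fold, and 55 of 72 points lie right of 0.

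The log2 fold change was above 0 in 55 of the 72 genes (76.4%), against 51.3% of all genes tested, and its median was 0.056 against 0.006. Of the 92 cytosolic ribosomal protein genes, 73.9% were above 0, at a median of 0.02. With scaling to the library total 60 of 72 genes were above 0, and with quantile normalization 52. The groups did not overlap in 10 genes. In 8 of them (11.1%, background 12.9%) overexpression was higher, namely mRpL46, mRpS31, mRpS14, mRpL40, mRpL21, mRpS22, mRpS25 and mRpL44. In mRpS9 and mRpL3 (2.78%, background 14.4%) it was lower, with log2 fold changes of -0.10 and -0.11 that were not called. These genes were singled out after their values were seen. mRpS22, of the small subunit, showed the pattern at high counts, with 618, 635 and 647 normalized counts in control and 730, 687 and 707 in overexpression libraries (log2 fold change 0.16, adjusted p = 0.141).

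Each library was then described by the deviation of the members from their own mean over the 6 libraries, on the log2 scale. The median deviation was -0.029, -0.028 and -0.028 in control replicates 1, 2 and 3 and 0.033, 0.005 and 0.032 in overexpression replicates 1, 2 and 3. The same median over all genes tested stayed between 0.001 and 0.004. The small offset of the members was seen in each control library and was smallest in overexpression replicate 2. There 37 of 72 genes were above their own mean, against 47 and 41 in the other overexpression and 27 to 32 in the control libraries. A gene's deviations balance over the 6 libraries, so an offset in either group brings the opposite in the other. They come from the same values as the log2 fold changes.

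Summed over the 72 genes, normalized counts were 24342, 24020 and 24322 in control libraries (24228 ± 180, SD) and 25257, 24907 and 25131 in overexpression libraries (25099 ± 178). The groups did not overlap and the ratio of their means was 1.04. Over all genes tested, the sums were lower in the overexpression libraries, also without overlap (ratio 0.972). A share of all reads takes in that lower total. As a share of all reads assigned to genes, given as RPM, the sums were 1345, 1323 and 1321 RPM in control (1330 ± 13.3) and 1425, 1408 and 1417 RPM in overexpression libraries (1417 ± 8.82), a ratio of 1.07. The 46 large subunit genes summed to 15106 to 15237 normalized counts in control and 15408 to 15713 in overexpression libraries, and the 26 small subunit genes to 8914 to 9115 and 9499 to 9689. Genes with many reads weigh most in these sums, and no p is given for a sum over the members.

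**Figure D4:**
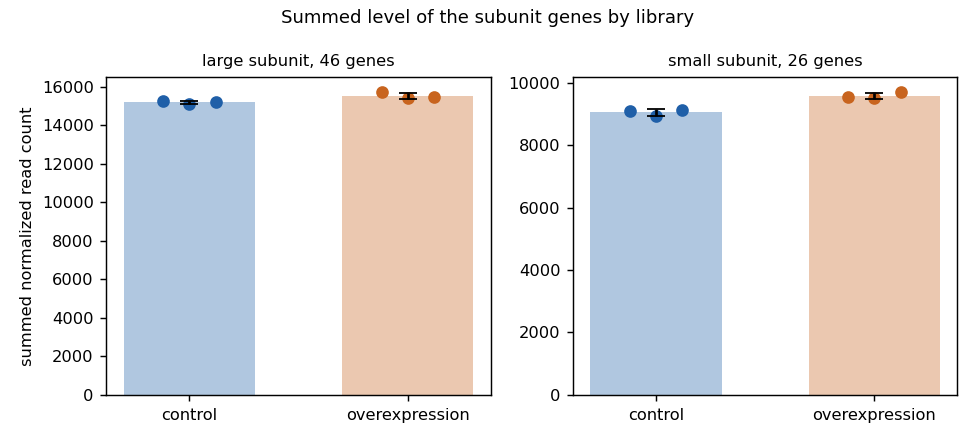
Summed normalized read count (y axes, each from 0) of the 46 large and the 26 small subunit genes, with bars for the mean of 3 libraries, error bars for the SD and 1 point per library. In both subunits the 3 overexpression libraries lie above the 3 control libraries by a margin that is small beside the level itself, such as 9499 to 9689 against 8914 to 9115 in the small subunit.

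By subunit, the median log2 fold change was 0.04 in the large subunit (33 of 46 genes above 0, 1 called higher) and 0.11 in the small subunit (22 of 26 above 0, 1 called higher), and the difference between the subunits was not tested. By origin, genes of bacterial type in the large subunit had a median of 0.03 (19 of 29 above 0, none called) and those specific to mitochondria one of 0.06 (15 of 18 above 0, mRpL46 called). mRpS30 and mRpS18A were placed with the latter, since their mammalian counterparts are found in the large subunit. The sums, medians and figures by subunit followed the symbols and count these genes in the small subunit. In the small subunit the medians were 0.08 for bacterial-type genes (12 of 14 above 0, none called) and 0.13 for mitochondria-specific genes (8 of 10 above 0, mRpS31 called). mRpL55 was on neither list. The 9 proteins of the stalk and the exit tunnel, where factors bind and the new chain leaves, had a median of 0.05, with 8 above 0 and none called. Over all genes tested, 51.3% were above 0, 3.18% were called higher and 5.24% lower. Beside these shares, 0 or 1 call in a list does not set the lists apart, and the difference by origin was not tested.

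The members share a compact gene structure that the choice by symbol did not use. Their span on the chromosome had a median of 885 bases, against 2343 over tested protein-coding genes, and 69 of 72 were shorter than 2000 bases, the exceptions being mRpS9 (13391), mRpS5 (6299) and mRpS30 (2242). Of the 72 genes, 41 (56.9%) overlapped another gene of the table, against 44.4% of all genes tested, nearly always on the other strand (40 genes). mRpL13 lies wholly inside CG10602 on the same strand, so its reads and those of that gene may not have been told apart. The genes were spread over arms 2L (12), 2R (11), 3L (17), 3R (21) and X (11), with median log2 fold changes of 0.04, 0.04, 0.05, 0.07 and 0.02. Both called genes were on 3L. The closest members were mRpL3 and mRpS30 on X, 23383 bases apart (log2 fold changes -0.11 and 0.02), and mRpL24 and mRpL28 on 2L, 28614 bases apart (0.00 and -0.06).

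The list of mitochondrial ribosomal proteins under other names held 2 genes, both of the small subunit, and further such genes were not looked for. *tko* (technical knockout), the S12 protein at the decoding centre, had 320, 341 and 353 normalized counts in control and 310, 291 and 289 in overexpression libraries. All 3 overexpression libraries were below the control libraries, and the log2 fold change of -0.19 (standard error 0.084) was not called (limma adjusted p = 0.213). *bonsai*, the S15 protein, had 397, 372 and 373 and then 369, 367 and 382 normalized counts, which overlapped (log2 fold change -0.03, adjusted p = 0.870).

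The other steps of mitochondrial gene expression were described with lists of their genes. Symbols that matched no gene of the table, or a gene already matched, are left out of the counts. The lists held 15 symbols of synthetases and 17 of translation factors. They held 13 of transcription and RNA handling and 12 of chaperones, proteases and stress genes. Of 14 aminoacyl-tRNA synthetases, which load mitochondrial tRNAs, none was called higher and 1 lower (7.14%, background 5.24%). Their median log2 fold change was -0.02 (0.02 with scaling to the library total). The lower one was IleRS-m, the isoleucine enzyme, listed as CG5414, with 157, 146 and 147 normalized counts in control and 106, 109 and 109 in overexpression libraries. The groups were far apart for so small a count, and the log2 fold change was -0.47 (standard error 0.121, limma adjusted p = 0.0308). The call was lost in each of the 6 fits without 1 library (adjusted p = 0.0590 to 0.121) and in DESeq2 (0.0629), over a range of 0.0230 to 0.121 in 15 alternatives. None of 11 translation factors (median -0.01, or 0.04 with scaling to the library total), 10 genes of mitochondrial transcription and RNA handling (median -0.05) and 11 chaperones, proteases and stress genes (median 0.02) was called by limma in either direction.

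Among 5 regulators of mitochondrial biogenesis, srl (Spargel, the fly counterpart of the PGC-1 coactivators) was the only one called. It had 268, 271 and 264 normalized counts in control and 363, 362 and 344 in overexpression libraries. Replicates lay within a few percent of each other and the groups were well apart. Its log2 fold change was 0.41 (standard error 0.081, limma adjusted p = 0.00774), and it was called in 15 of 15 alternatives that tested it (adjusted p = 0.00499 to 0.0359). Its gene also overlaps a gene on the other strand, CG31525. Myc, listed as dm and also chosen after its values were seen, had a log2 fold change of 0.28 (adjusted p = 0.0605), and the list's median was 0.03.

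The 92 cytosolic ribosomal protein genes had a median log2 fold change of 0.02, with 68 above 0 and none called in either direction. The 39 nuclear complex I genes had a median of -0.12, with 6 above 0, 9 called lower (23.1%, background 5.24%) and 1 called higher (2.56%, background 3.18%). The lower ones included the accessory subunits ND-B17 (listed as l(2)35Di, -0.29), ND-B22 (CG9306, -0.26) and ND-42 (ND42, -0.24), and the higher one was ND-51L1 (CG11423, 0.32), a paralog of a core subunit. The number called lower fell to 1 without control replicate 1 or control replicate 3, to 3 without overexpression replicate 1 or 2 and with scaling to the library total, to 5 without control replicate 2 or with quantile normalization, and to 0 without the intensity trend. Of the 9 muscle markers, at a median of -0.27, 5 were called lower in the same libraries, while Act88F (0.03) and fln (-0.04) changed little. The part of muscle in the complex I values was not tested. The difference between the complex I genes and the ribosomal protein genes was itself not tested.

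**Figure D5:**
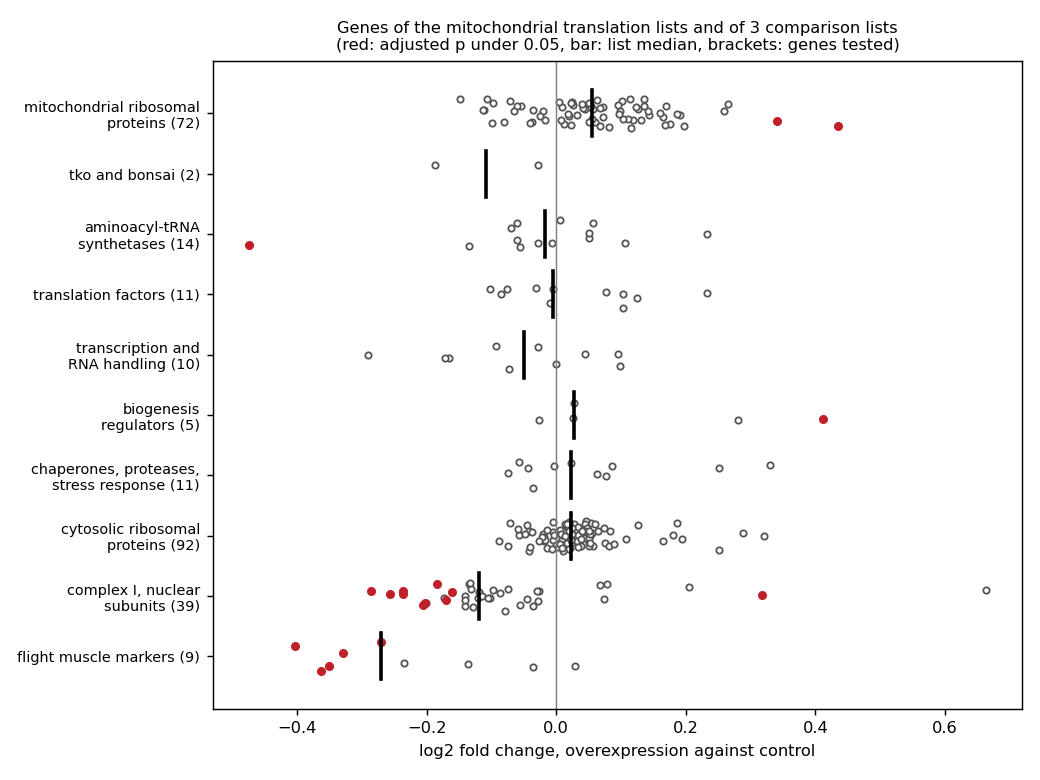
Log2 fold change of overexpression against control (x axis) for each tested gene of 10 lists (y axis, with the number of genes tested), red where the limma adjusted p was under 0.05, with a black bar at the list's median. The mitochondrial ribosomal protein genes lie around a median of 0.056 with 2 red points on the right, while 9 of 10 red complex I points and all 5 red muscle markers lie on the left.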

How the data were processed

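Polyadenylated RNA of male flies was sequenced as paired-end reads. Per the study's methods and the submitters' processing notes, reads were aligned to dm6 with HISAT2 2.0.5, counted per gene with featureCounts 1.5.0-p3 and compared with DESeq2. The deposited values, named FPKM by the authors, are a signal: the reads of a gene over a size factor for the library. Times that factor, 100% of values were whole within 0.01. The authors' fold changes, p-values and 2 columns of group means were not used.

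log2(value + 1) was compared with limma 3.58.1 (R 4.3.3; intensity trend, no covariate, Benjamini-Hochberg adjusted p under 0.05) in the 13196 genes whose mean FPKM, computed from recovered reads and deposited gene lengths, reached 0.5. All 72 members passed. The design had named the count tools as alternatives: edgeR 4.0.16, DESeq2 1.42.0 and limma voom on recovered reads. Others were a pseudocount of 0.1, no filter or a mean of at least 5 FPKM, library-total and quantile scaling, no trend, a replicate block and each library left out. Calculations were tested on simulated data. Every pair of replicates differed beyond sampling noise, so each library counted once.

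The members and lists were chosen with earlier results of these data known. Genes were named by rule: members called by any tool, the 5 highest and 5 lowest in mean FPKM, the 5 with the largest log2 fold change among those not called, tko, bonsai, lncRNA-CR33942, and up to 4 called genes of each other list. Genes outside it were chosen after their values were seen: mRpL34, mRpS22 and the other members whose groups did not overlap, Myc, neighbouring or overlapping genes, members with unusual spans or positions, and markers not called by limma. Sequences were not analysed here. Figures used Python 3.11.15 and matplotlib 3.10.9.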

Additional observations from a re-analysis of the deposited data

How the results depend on the processing

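The number of mitochondrial ribosomal protein genes called higher was 2 with every alternative except without the intensity trend (0) and with 1 library left out (0 to 1), and none was called lower in any of them. Over all genes, 632 were called higher with scaling to the library total and 94 without the intensity trend (99 lower), and with 1 library left out 201 to 393 were called higher and 328 to 618 lower. The lowest of these came without control replicate 1 (201 and 328), followed by control replicate 3 (235 and 394) and overexpression replicate 1 (279 higher). The members' median log2 fold change was 0.096 with scaling to the library total (large subunit 0.081, small subunit 0.147), where the median of all genes was 0.046, and 0.047 to 0.081 with 1 library left out. The ratio of summed levels was 1.07 in RPM. With 1 library left out, the sign of the log2 fold change was followed only in the genes named by rule. Among these it took either sign in mRpL24 (-0.0548 to 0.0647), mRpL12 (-0.0143 to 0.0945), mRpL42 (-0.0958 to 0.0555) and mRpS24 (-0.0862 to 0.211). The same held for mRpL48 (-0.00888 to 0.282 around 0.17), mRpL13 (-0.00827 to 0.250 around 0.12) and bonsai (-0.0465 to 0.00237). bonsai also turned with scaling to the library total (0.0118). None of these genes was called.

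The replicate block gave 517 genes higher and 846 lower, 2 members higher and none lower, and a members' median of 0.056. Same-numbered libraries did not deviate together (correlations of -0.034, 0.052 and -0.036), so the numbers were not taken as pairs. Without the filter and with it, the same 2 members were called. With 3 libraries a group, small changes could be missed. The adjusted p was stricter than the 95% interval, since mRpS14 and mRpS22 were not called although their intervals lay above 0.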
